A study of Mus musculus with 16 samples.

Results

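The genes of the T cell receptor complex and of the main T cell subsets were followed in mouse whole lung after bleomycin, an agent that injures the lung and leads to fibrosis, and after a target site blocker directed at Cav1. The members were the CD3 chains Cd3e, Cd3d, Cd3g and Cd247, the co-receptors Cd4, Cd8a and Cd8b1, the kinase Lck and the transcription factor Foxp3, taken with every array spot that the annotation gives them. Of these 9 genes, 8 had at least 1 annotated spot, with 29 spots in all out of 62976 on the array, and Lck was not analysed here. Total RNA of 16 whole-lung samples of C57BL/6 mice aged 9 to 12 weeks was labelled with Cy3 and hybridised to Agilent arrays, 1 array per sample. The 4 groups were bleomycin with CAV1 TSB (6 arrays), bleomycin with Control TSB (6 arrays), PBS with CAV1 TSB (2 arrays) and PBS with Control TSB (2 arrays). Target site blockers (TSB) are short nucleic acids made to occupy the place where a microRNA would bind a chosen messenger RNA. Every mouse, PBS groups included, was given one of the 2 blockers by the tracheal route, on 3 occasions: 4 days before, 2 days before and 4 days after the challenge. The challenge was PBS or bleomycin (1 unit/kg), the CAV1 TSB was dosed at 5 mg/kg, and no dose is stated for the Control TSB. No untreated lung was measured, and the day of collection is not stated. The labels do not say that each array is a separate animal, and the p-values therefore measure the spread between these samples, which may be technical.

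T cells recognise peptides through a receptor whose variable chains do not signal on their own. The CD3 chains carry the signal into the cell, Lck begins it by phosphorylating them, and CD4 or CD8 binds the class of MHC molecule that presents the peptide. Foxp3 directs the regulatory lineage, which restrains immune reactions, and in injured lung T cells are found both among infiltrating leukocytes and in resident populations. In whole lung a lower signal of these genes can come, among other sources, from fewer T cells or from less RNA per T cell, which cannot be told apart here.

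Cd3g and Cd3d are divergent neighbours, with start sites 1355 bases apart, and Cd3e starts 27825 bases from Cd3d on the same chromosome. Cd3e passed the test below, and all 3 of these CD3 genes shared their highest array with Cd8a. The regions from 250 bases before to 50 bases after the start (RefSeq, GRCm38.p6) are shown for these 3 genes and for Cd8a. They lie at chr9:45009562-45009861 (minus strand, Cd3e), chr9:44981536-44981835 (plus strand, Cd3d), chr9:44980382-44980681 (minus strand, Cd3g) and chr6:71373177-71373476 (plus strand, Cd8a). Capitals mark the letters ACTTCCTG, bound by ETS factors, and CAGCTG, an E-box, searched on both strands.
Cd3e: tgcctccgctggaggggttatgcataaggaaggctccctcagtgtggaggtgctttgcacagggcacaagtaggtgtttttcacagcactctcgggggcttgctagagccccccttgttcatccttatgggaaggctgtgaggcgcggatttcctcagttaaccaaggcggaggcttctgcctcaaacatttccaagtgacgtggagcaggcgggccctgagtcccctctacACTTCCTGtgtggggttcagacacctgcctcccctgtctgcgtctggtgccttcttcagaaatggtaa
Cd3d: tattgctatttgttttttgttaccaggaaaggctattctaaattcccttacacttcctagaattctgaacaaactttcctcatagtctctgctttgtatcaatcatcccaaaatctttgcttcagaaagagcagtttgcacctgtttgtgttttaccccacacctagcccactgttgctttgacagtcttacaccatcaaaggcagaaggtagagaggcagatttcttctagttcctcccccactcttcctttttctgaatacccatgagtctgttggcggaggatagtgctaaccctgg
Cd3g: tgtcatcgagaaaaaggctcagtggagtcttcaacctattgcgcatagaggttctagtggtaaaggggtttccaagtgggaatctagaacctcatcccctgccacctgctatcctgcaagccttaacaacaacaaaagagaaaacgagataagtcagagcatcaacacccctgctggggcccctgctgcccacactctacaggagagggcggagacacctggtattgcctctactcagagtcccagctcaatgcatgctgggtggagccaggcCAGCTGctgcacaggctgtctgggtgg
Cd8a: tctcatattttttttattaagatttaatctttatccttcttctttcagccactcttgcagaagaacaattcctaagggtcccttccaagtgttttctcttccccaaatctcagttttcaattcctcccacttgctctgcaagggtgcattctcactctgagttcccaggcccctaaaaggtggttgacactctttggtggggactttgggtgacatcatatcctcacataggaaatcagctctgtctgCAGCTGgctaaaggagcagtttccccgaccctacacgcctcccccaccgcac
The ETS letters occurred 1 time in the window of Cd3e and 2 times in that of Cd247, and 3.33% of 32851 mouse promoters of this length hold them. The E-box occurred 1 time each in Cd3g and Cd8a, and 16.3% of promoters hold it. The RUNX letters TGTGGT, held by 16.8% of promoters, were in none of the 4 sequences shown. Both listed windows of Lck held the ETS letters 1 time, 1 of them also the RUNX letters, and 1 of the 2 windows of Foxp3 held an E-box. Promoters were at hand for 7 of the 9 members.

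The deposited values are log2 intensities, normalized by the authors, with nearly the same distribution in every array. Array medians lay between 6.51 and 6.52. The lung markers averaged 14.49 to 14.999 in the 16 arrays, near the bright end of the scale. The blocker's target Cav1 reached 10.80 to 11.39 with CAV1 TSB against 10.47 to 10.98 with Control TSB after bleomycin, and the difference of 0.24 did not pass the test (limma, adjusted p = 0.642). RNA integrity numbers were 9 or 10 throughout.

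T cell transcripts were measured at very different distances from the dim end of the array. For scale, and chosen after the values were seen, the 1296 spots of olfactory receptor genes, which lung is not known for, had a median of 5.92 and a 95th percentile of 6.25. The brightest spots of Cd3e, Cd3d, Cd3g, Cd4 and Cd8b1 averaged 9.88, 10.29, 8.99, 9.88 and 7.82, each above 99.6% or more of those spots. Foxp3 averaged 6.57, above 97.9% of them. Levels of different genes come from different probes and are not set against each other here.

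Cd4 had 11 spots that disagreed. One spot averaged 9.88 over the arrays, whereas the other 10, annotated to the same transcript, averaged 6.15 to 6.26, near the 95th percentile of the olfactory receptor spots. The bright Cd4 spot was used as the gene's value, and it is the less certain for having no second spot at its level. Cd8a also had 11 spots, and here 10 spots of 1 transcript agreed, with means of 6.98 to 7.34 and a median SD of 0.125 between spots of an array. The Cd8a spot of the other transcript was dimmer, at 6.5, and Cd247 had 2 spots at 7.01 and 6.24.

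**Figure D1:**
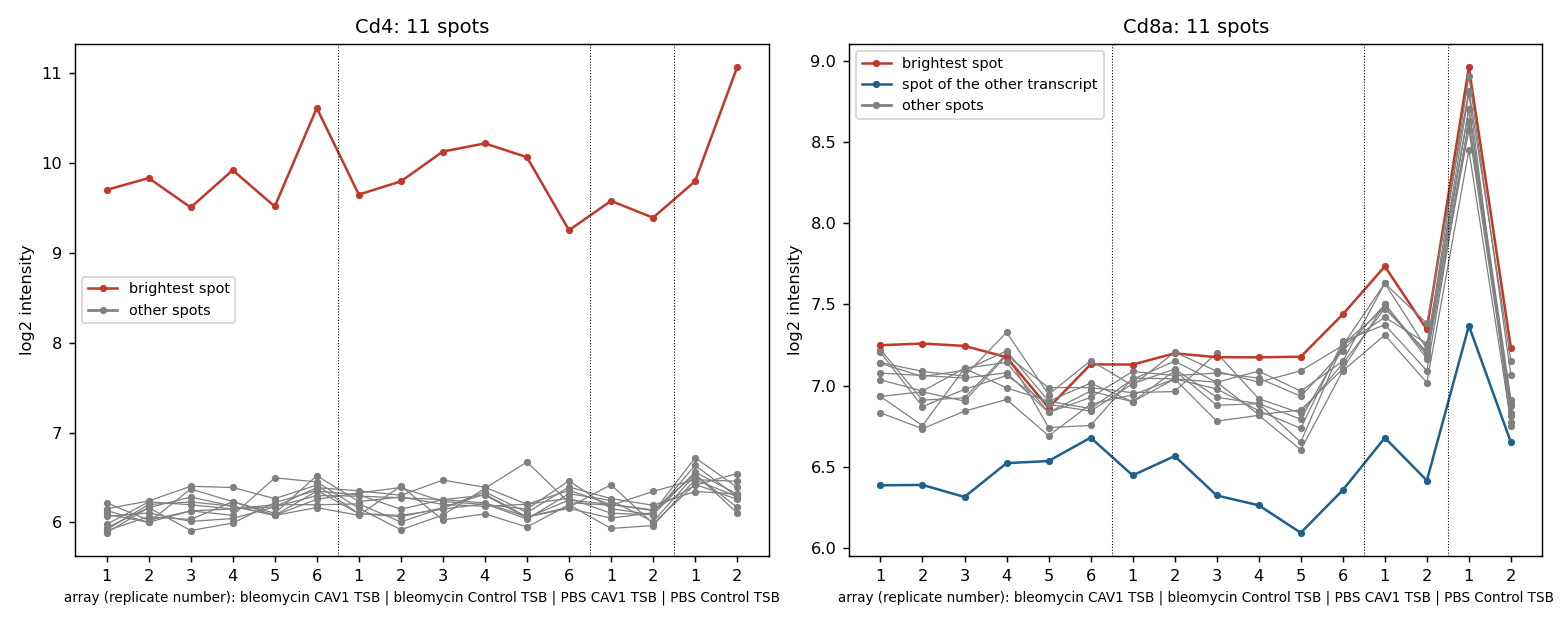
Log2 intensity (vertical axis) of each of the 11 spots of Cd4 and of Cd8a in the 16 arrays (horizontal axis, by group and replicate number). The bright Cd4 spot runs between 9.25 and 11.07 and is highest in PBS Control TSB array 2, whereas the Cd8a spots together are highest in PBS Control TSB array 1.

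One array stood apart in thymus transcripts, and it is 1 of only 2 arrays of its group. Of the 11 thymocyte and thymic epithelium markers, the mean was 8.49 in PBS Control TSB array 1 and 6.75 to 6.90 in the other 15 arrays. Dntt, which adds bases during receptor gene joining, had 11.09 in that array and at most 7.24 elsewhere. Rag1, which cuts the receptor genes for joining, had 9.87 against at most 7.06, and the thymic chemokine receptor Ccr9 had 9.66 against at most 7.78. Rag2 had 7.56, Ptcra 7.35 and Arpp21 7.03, each the highest of the 16 arrays. Of the genes of thymic epithelium, Prss16, a protease of its cortical part, was also the highest there, at 9.35 against at most 6.51, whereas Foxn1, at 6.08, and Psmb11, at 6.34, were not. Cd1d1, at 10.98, and Tbata, at 8.13, were not the highest there either. The same array had the highest level of skeletal muscle markers, 12.80, where the 5 lowest arrays had 7.14 to 8.45. Markers of squamous epithelium were high and low in nearly the same arrays, at 11.35 in PBS Control TSB array 1, 10.62 in array 2, and 7.28 and 7.40 in the PBS CAV1 TSB arrays, with 7.48 to 7.65 in bleomycin Control TSB arrays 2 and 6 and bleomycin CAV1 TSB array 3. Most member results that rest on PBS Control TSB array 1 are therefore given with and without it below. For genes of the other lists the effect of leaving out 1 array is mostly given as a count or a range. The part of these markers in the results was not tested.

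**Figure D2:**
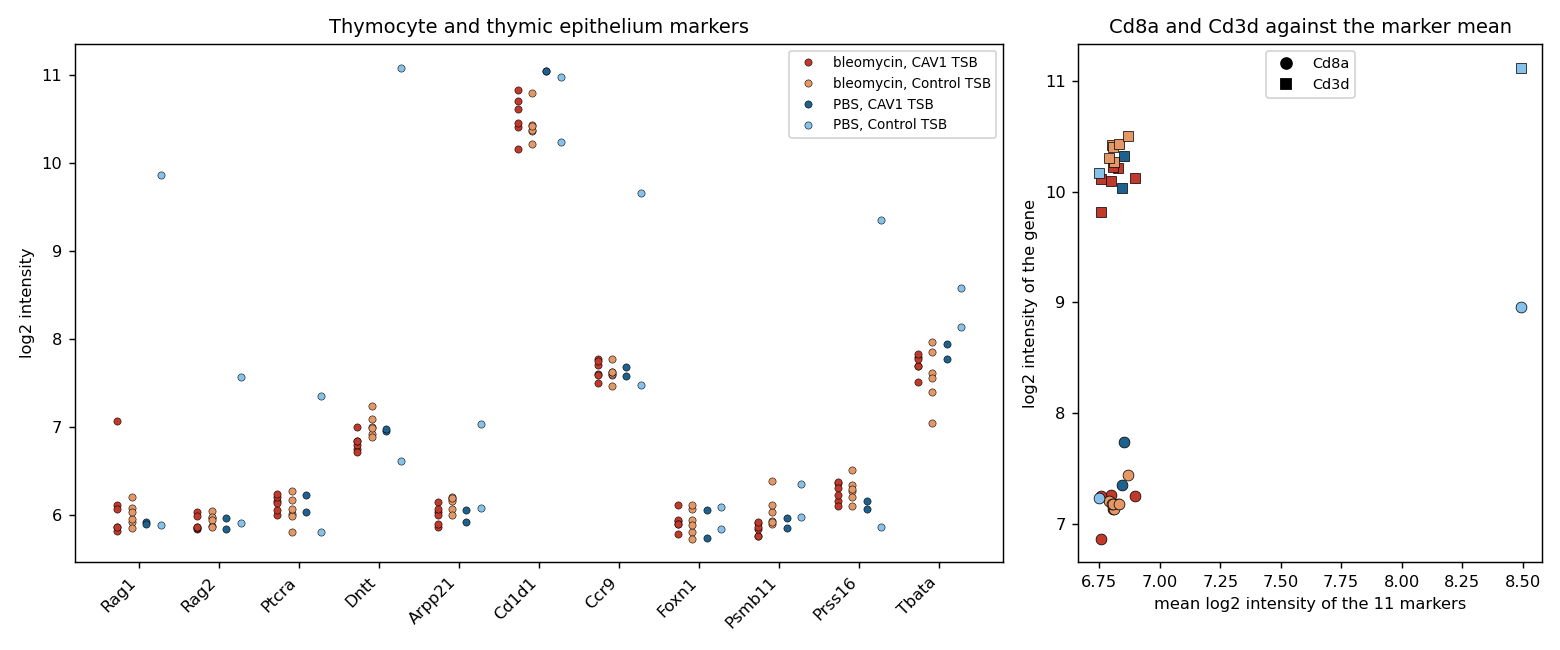
Left, log2 intensity of the 11 thymocyte and thymic epithelium markers in the 16 arrays (points, coloured by group). Right, Cd8a (circles) and Cd3d (squares) against the mean of the 11 markers; PBS Control TSB array 1 lies alone at 8.49 on the horizontal axis, and it is the highest array for Cd8a (8.96) and Cd3d (11.12).

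Among the CD3 chains, Cd3e was lower after bleomycin than after PBS under Control TSB. Cd3e, the epsilon chain found in every T cell receptor complex, had 9.63, 9.70 and 9.99 (lowest, median and highest) in bleomycin Control TSB arrays, against 10.50 and 10.27 in the PBS Control TSB arrays. The 2 groups did not overlap. Cd3e fell by 0.63 on the log2 scale (SE 0.138, 95% confidence interval -0.92 to -0.33; limma with Benjamini-Hochberg adjustment over 20304 genes, adjusted p = 0.0302). It was the 1 member of 8 called in this comparison, in which 2.41% of all genes were called, 0.448% as lower and 1.96% as higher. At an unadjusted p under 0.05, which 15.9% of all genes reached, 3 members were lower. Leaving out any 1 of 6 arrays ended the Cd3e call, namely PBS Control TSB array 1 (change -0.51, adjusted p = 0.0571), PBS Control TSB array 2 (-0.74, 0.111) and bleomycin Control TSB arrays 1, 2, 3 and 6 (-0.62, -0.62, -0.61 and -0.60, with adjusted p = 0.0658, 0.0570, 0.0523 and 0.05004). Covariates for skeletal muscle and for B cell markers also ended it (-0.55, adjusted p = 0.0816, and -0.61, adjusted p = 0.201), as did a fit to the compared arrays alone (adjusted p = 0.0525).

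Under CAV1 TSB no such difference was seen in Cd3e. The bleomycin CAV1 TSB arrays had 9.69, 9.73 and 10.20, and the PBS CAV1 TSB arrays 9.94 and 9.77, so that both PBS arrays lay inside the bleomycin range. The change was -0.02 (95% confidence interval -0.31 to 0.27; adjusted p = 0.967). The interaction, that is the bleomycin effect under CAV1 TSB minus that under Control TSB, was 0.61 (95% confidence interval 0.20 to 1.02, unadjusted p = 0.00677, adjusted p = 0.497) and did not pass the test over all genes. Skeletal muscle markers differed as well, with a median change of 2.87 under CAV1 TSB and 4.57 in the interaction. Their part in the Cd3e values was not tested. Among groups the order of Cd3e means was PBS Control TSB (10.39), PBS CAV1 TSB (9.86), bleomycin CAV1 TSB (9.84) and bleomycin Control TSB (9.76), and the difference between the PBS groups, -0.53 for CAV1 TSB against Control TSB, had an adjusted p of 0.288.

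Cd3d and Cd3g, the delta and gamma chains, did not pass the test in any comparison. Cd3d had 10.27, 10.41 and 10.50 in bleomycin Control TSB arrays, against 11.12 and 10.16 in PBS Control TSB arrays. Cd3g had 8.71, 8.90 and 9.42 in bleomycin Control TSB arrays, against 9.86 and 8.53 in PBS Control TSB arrays. For both chains the bleomycin range lay between the 2 PBS arrays, with array 1 above it and array 2 below it. The changes were -0.26 for Cd3d (SE 0.179, adjusted p = 0.515) and -0.19 for Cd3g (SE 0.255, adjusted p = 0.742). Without PBS Control TSB array 1 they were 0.22 and 0.47, and without array 2 they were -0.73 (adjusted p = 0.0419, for Cd3d) and -0.86 (adjusted p = 0.131, for Cd3g), so 1 array decided the direction. Under CAV1 TSB the values were 9.81, 10.12 and 10.23 after bleomycin against 10.32 and 10.03 after PBS for Cd3d, and 8.65, 8.89 and 9.09 against 9.21 and 9.00 for Cd3g, with changes of -0.08 and -0.22.

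Cd247, the zeta chain that carries most of the signalling motifs, was not called in any comparison. It had 6.71, 6.94 and 7.18 in bleomycin CAV1 TSB arrays and 6.91, 7.02 and 7.43 in bleomycin Control TSB arrays, against 7.01 and 6.85 in PBS CAV1 TSB arrays and 7.08 and 7.31 in PBS Control TSB arrays. All groups overlapped except that the PBS arrays of the 2 blockers did not. Its changes with bleomycin were -0.01 under CAV1 TSB (adjusted p = 0.989) and -0.12 under Control TSB (adjusted p = 0.699), and the second Cd247 spot gave -0.10 and -0.11.

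**Figure D3:**
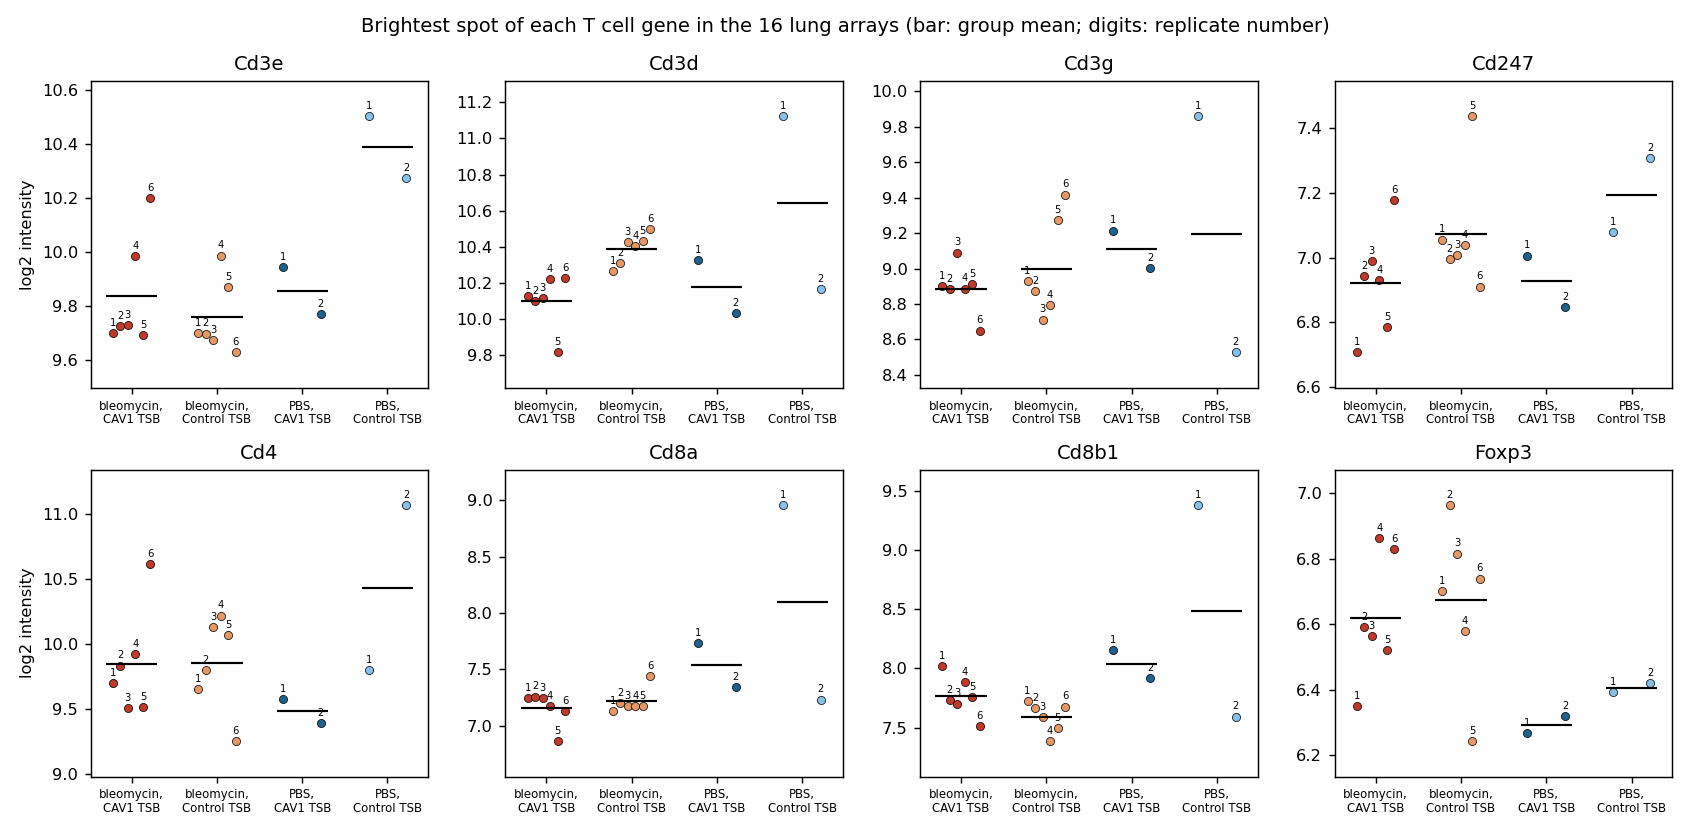
Log2 intensity of the brightest spot of each of the 8 measured members in the 16 arrays (points, with replicate numbers; bars are group means; groups from left to right are bleomycin with CAV1 TSB, bleomycin with Control TSB, PBS with CAV1 TSB and PBS with Control TSB). PBS Control TSB array 1 is the highest array for Cd3e, Cd3d, Cd3g, Cd8a and Cd8b1 and array 2 for Cd4.

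The CD8 chains had the largest changes of the members with bleomycin under Control TSB, and their size turned on 1 PBS array. Cd8a, the alpha chain, had 7.13, 7.18 and 7.44 in bleomycin Control TSB arrays, against 8.96 and 7.23 in PBS Control TSB arrays. Cd8b1, the beta chain that marks conventional cytotoxic T cells, had 7.38, 7.63 and 7.72, against 9.38 and 7.59. For both chains PBS Control TSB array 2 lay within the range of the bleomycin arrays. The changes were -0.88 for Cd8a (95% confidence interval -1.48 to -0.28, adjusted p = 0.127) and -0.90 for Cd8b1 (-1.52 to -0.28, adjusted p = 0.133). Without PBS Control TSB array 1, the array with thymocyte markers, they were -0.02 and -0.00 (adjusted p = 0.959 and 0.992). Without array 2 they were -1.74 and -1.79, and both passed the test (adjusted p = 5.1e-05 and 4.7e-05), but that fit, which called 0.448% of all genes, rests on array 1 as the lone PBS Control TSB array and assumes that it varies like the other groups.

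Under CAV1 TSB, Cd8a had 6.86, 7.21 and 7.26 after bleomycin against 7.73 and 7.35 after PBS, and Cd8b1 had 7.51, 7.74 and 8.02 against 8.15 and 7.92. The 2 Cd8a groups did not overlap, and 1 PBS array lay above the bleomycin range for Cd8b1. The changes were -0.39 (95% confidence interval -0.99 to 0.22, adjusted p = 0.565) and -0.27 (-0.89 to 0.35, adjusted p = 0.719), and neither passed the test. Thymocyte markers averaged 6.85 and 6.84 in the 2 PBS CAV1 TSB arrays, against 6.76 to 6.90 in the bleomycin CAV1 TSB arrays. Dendritic cell markers, listed because some of those cells carry CD8 alpha or CD4, averaged 10.52 to 10.72 after bleomycin against 10.41 and 10.29 after PBS under CAV1 TSB. Averaged over both blockers, the change of Cd8a with bleomycin was -0.63 (adjusted p = 0.0829) and that of Cd8b1 -0.58 (adjusted p = 0.127); without PBS Control TSB array 1, where 9.47% of all genes and no member were called, these were -0.20 and -0.14. Without array 2, where 5.65% of genes were called, Cd3d (-0.41), Cd3g (-0.54), Cd8a (-1.06) and Cd8b1 (-1.03) passed over both blockers (adjusted p = 0.0226, 0.0351, 7.9e-05 and 0.000115).

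The 10 Cd8a spots of 1 transcript, the brightest among them, were all highest in PBS Control TSB array 1. Their mean was 8.72 in PBS Control TSB array 1, 7.51 in PBS CAV1 TSB array 1, 7.21 in PBS CAV1 TSB array 2 and 6.93 in PBS Control TSB array 2, with 6.86 to 7.13 in the bleomycin CAV1 TSB arrays and 6.86 to 7.22 in the bleomycin Control TSB arrays. Spots tested on their own gave changes of -0.91 to -0.67 under Control TSB for the 10 spots other than the brightest, and 1 of them, the spot of the other transcript (6.5 on average), passed (-0.67, adjusted p = 0.0431). Over both blockers 1 other Cd8a spot, of the 10 that agreed, passed on its own (-0.69, adjusted p = 0.0434), although the brightest spot did not.

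Cd4, the co-receptor of helper and regulatory T cells that some macrophages and dendritic cells also carry, went with a different array. Its bright spot had 9.51, 9.77 and 10.61 in bleomycin CAV1 TSB arrays and 9.25, 9.93 and 10.22 in bleomycin Control TSB arrays, against 9.58 and 9.39 in PBS CAV1 TSB arrays and 9.80 and 11.07 in PBS Control TSB arrays. The highest values were those of PBS Control TSB array 2 and bleomycin CAV1 TSB array 6. The change with bleomycin was 0.36 under CAV1 TSB (SE 0.325, adjusted p = 0.653) and -0.58 under Control TSB (SE 0.325, adjusted p = 0.411). Under Control TSB it was 0.05 without PBS Control TSB array 2, and -1.21 without PBS Control TSB array 1, which passed the test (adjusted p = 0.0318) in a fit that rests on array 2 alone and called 20.1% of all genes. The 10 dim Cd4 spots averaged 6.51 in PBS Control TSB array 1, the highest of the 16 arrays, and 6.03 to 6.34 in the others, so the bright and dim spots had different highest arrays. One of the dim spots passed the test under Control TSB when spots were tested singly (-0.40, adjusted p = 0.0439).

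**Figure D4:**
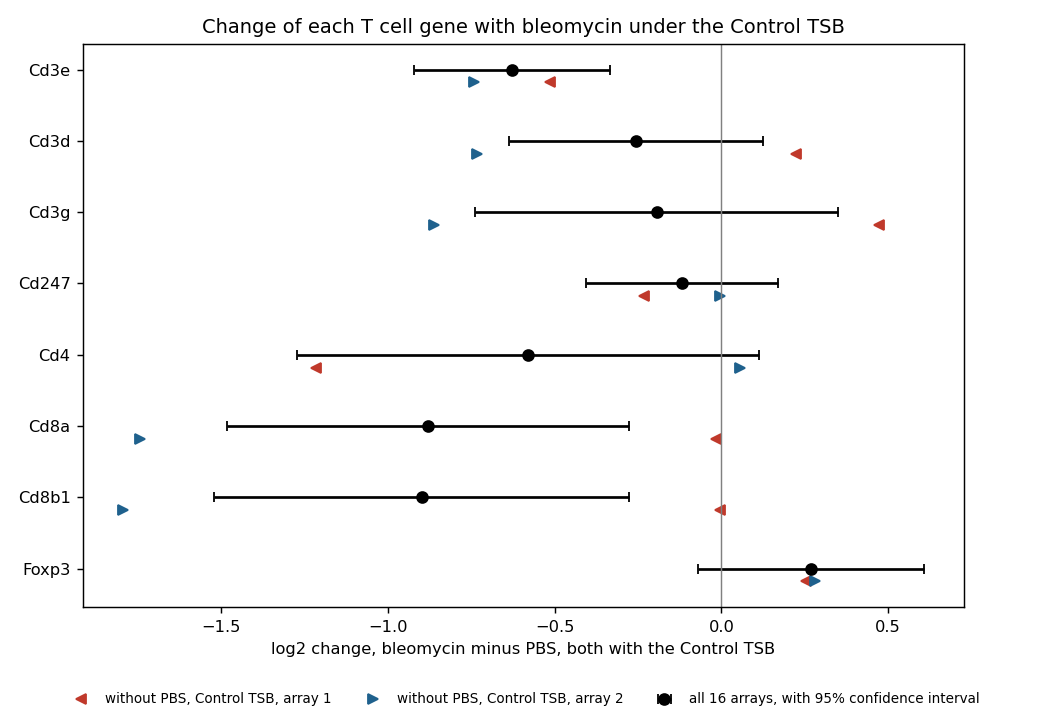
Log2 change of each measured member with bleomycin against PBS under Control TSB (horizontal axis) over all 16 arrays, with the 95% confidence interval, and without either of the 2 PBS Control TSB arrays (triangles). Cd8a and Cd8b1 sit at -0.02 and -0.00 without array 1 and at -1.74 and -1.79 without array 2; Cd3e stays between -0.51 and -0.74.

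Foxp3 was the member whose estimates with bleomycin were positive under both blockers, though neither passed the test. It had 6.35, 6.58 and 6.86 in bleomycin CAV1 TSB arrays and 6.24, 6.72 and 6.96 in bleomycin Control TSB arrays, against 6.27 and 6.32 in PBS CAV1 TSB arrays and 6.39 and 6.42 in PBS Control TSB arrays. Most bleomycin arrays lay above all 4 PBS arrays, but CAV1 TSB array 1 and Control TSB array 5 did not. The change was 0.33 under CAV1 TSB (95% confidence interval -0.01 to 0.67, adjusted p = 0.354), 0.27 under Control TSB (-0.07 to 0.61, adjusted p = 0.439) and 0.30 over both blockers (0.06 to 0.54, adjusted p = 0.156). Over both blockers 5.93% of all genes were called and none of the 8 members was. At an unadjusted p under 0.05, which 17.4% of genes reached, Foxp3 was higher and Cd3e, Cd8a and Cd8b1 were lower. Without bleomycin Control TSB array 5, the Foxp3 change over both blockers was 0.34 and passed (adjusted p = 0.0457).

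The difference between Foxp3 and Cd3e within each array, which any shift common to a whole array leaves untouched, was higher after bleomycin. Foxp3 minus Cd3e was -3.15 ± 0.26 after bleomycin (SD, n = 12) and -3.77 ± 0.28 after PBS (SD, n = 4), with probe brightness setting the absolute value. The difference of 0.62 had an exact permutation p of 0.00220 over 1820 assignments (two-sided, smallest possible 0.0011) and an adjusted p of 0.00879 over the 4 within-array tests. The bleomycin arrays ran between -3.63 and -2.73. The PBS arrays were -3.68 and -3.45 with CAV1 TSB and -4.11 and -3.85 with Control TSB. Bleomycin Control TSB array 5, at -3.63, therefore lay inside the PBS range. This test pooled the 2 blockers. Cd3e changed by -0.63 under Control TSB and by -0.02 under CAV1 TSB, and Foxp3, whose spot lay near the dim end, by 0.27 and 0.33. The difference was 0.51 without PBS Control TSB array 1 and passed without each of the 16 arrays in turn. With Cd3d or Cd3g in place of Cd3e, a choice made after the values were seen, it was 0.46 (exact permutation, adjusted p = 0.180) and 0.51 (adjusted p = 0.281) and did not pass. Between the blockers after bleomycin Foxp3 minus Cd3e was -3.22 ± 0.11 with CAV1 TSB and -3.08 ± 0.35 with Control TSB (SD, n = 6 each), a difference of -0.13 (exact permutation p = 0.398).

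Cd4 minus Cd8a, taken the same way, did not differ beyond the spread of the arrays. It was 2.67 ± 0.42 after bleomycin (SD, n = 12) and 2.14 ± 1.25 after PBS (SD, n = 4), a difference of 0.52 (exact permutation p = 0.222). The PBS arrays were 1.85 and 2.05 with CAV1 TSB and 0.84 and 3.84 with Control TSB, so the 2 Control TSB arrays lay at opposite ends of all 16. Without PBS Control TSB array 1 the difference was 0.09 (exact permutation, adjusted p = 0.840), and without array 2 it was 1.09 and passed (adjusted p = 0.0264).

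**Figure D5:**
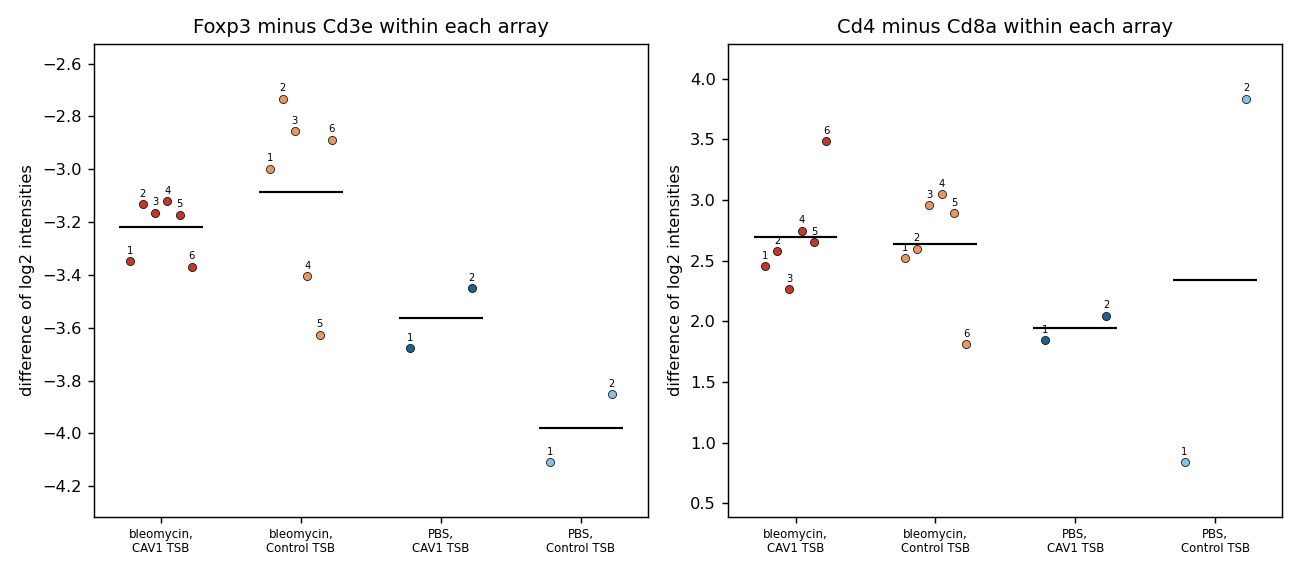
Difference of log2 intensities within each array (vertical axis) for Foxp3 minus Cd3e (left) and Cd4 minus Cd8a (right), by group (points, with replicate numbers; bars are group means). All 4 PBS arrays lie at or below -3.45 for Foxp3 minus Cd3e, and for Cd4 minus Cd8a the 2 PBS Control TSB arrays lie at 0.84 and 3.84.

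The comparison of the 2 blockers after bleomycin, 6 arrays against 6, is the best replicated of the series, and no member was called in it, where 1.61% of all genes were. The changes of CAV1 TSB against Control TSB lay between -0.29 and 0.18. Cd3d had 9.81, 10.12 and 10.23 with CAV1 TSB against 10.27, 10.41 and 10.50 with Control TSB, and the groups did not overlap. Its change was -0.29 (95% confidence interval -0.56 to -0.02, unadjusted p = 0.0366, adjusted p = 0.494), the 1 member under an unadjusted p of 0.05, which 9.08% of all genes reached. Cd3e and Cd3g, whose products assemble with that of Cd3d, gave 0.08 (-0.13 to 0.29) and -0.11 (-0.50 to 0.27). For Foxp3 the change was -0.05 (-0.29 to 0.18), for Cd4 -0.00 (-0.49 to 0.49), for Cd8a -0.06 (-0.49 to 0.36) and for Cd8b1 0.18 (-0.26 to 0.62), with all 4 intervals spanning 0.

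After PBS, 2 arrays against 2, the changes of CAV1 TSB against Control TSB were below 0 for all 8 members and for 44.0% of all genes tested. The members' median was -0.46, against 0.04 over all genes. None of the members was called, where 0.31% of genes were. The 8 changes come from the same arrays and are not independent of each other. Skeletal muscle markers moved with this comparison, at 7.14 and 7.40 with CAV1 TSB against 12.80 and 10.24 with Control TSB, all 12 of them lower at an unadjusted p under 0.05 (median change -4.01), and 8 of 12 squamous markers were lower likewise (median -3.30). No gene of either list was called in it, and their part in the members' changes was not tested. Bleomycin against PBS under CAV1 TSB gave median changes of 2.87 for muscle and 3.14 for squamous markers. At an unadjusted p under 0.05 (limma), 9 of 12 and 10 of 12 were higher, and 1 squamous marker was called. In the interaction the medians were 4.57 and 3.65, with 12 of 12 and 10 of 12 higher at that p and none called. The part of these markers in those comparisons was not tested either. Cd4 (-0.95) and Cd3e (-0.53) were lower at an unadjusted p under 0.05 (adjusted p = 0.384 and 0.288), which 12.8% of genes reached. Without PBS Control TSB array 1, Cd8a, Cd8b1, Cd3g and Cd3d were 0.31, 0.44, 0.58 and 0.01, and Cd4, at -1.58, passed (adjusted p = 0.0246; 19.8% of all genes did so in that fit). Without array 2, Cd3d, Cd8a and Cd8b1 passed, at -0.95, -1.42 and -1.35 (adjusted p = 0.0123, 0.00146 and 0.00252; 0.827% of genes). Bleomycin against PBS under CAV1 TSB gave 0 called members (limma), where 0.517% of all genes were called, and 0 members at an unadjusted p under 0.05, which 14.8% of genes reached. The interaction gave 0 called members and 0 called genes (limma; 9.22% of genes and, among members, Cd3e alone had an unadjusted p under 0.05). Without PBS Control TSB array 1 the interaction of Cd4 passed (1.58, adjusted p = 0.0391; 14.8% of genes), and without array 2 those of Cd8a (1.36, adjusted p = 0.00840) and Cd8b1 (1.52, adjusted p = 0.00503) did (0.202% of genes). The comparisons with PBS Control TSB share its 2 arrays and are not independent of each other.

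The genes most like the members were ranked by correlation over the 16 arrays after group means were removed, with no test. The members did not share 1 profile. Cd4 had r = -0.78 with Cd3g, -0.72 with Cd8b1 and -0.58 with Cd8a, but 0.49 with Cd3e and 0.63 with Cd247. Cd8a had r = 0.94 with Cd3d and 0.91 with Cd8b1. With the mean of the 8 members, the highest were Cd28 (r = 0.89), Olfr800 (0.87), Tnni1 (0.87), Satb1 (0.86), Parp11 (0.84), Tnnt1 (0.84), Potegl (0.84), Klhl8 (0.83), Olfr1137 (0.83) and Ptcra (0.82). Without the 2 PBS Control TSB arrays the r of Cd28, a costimulatory receptor, was 0.71, that of Tnnt1, a slow muscle troponin, 0.41, and that of Ptcra, the pre-T cell receptor alpha chain, 0.34. Those of Potegl, Satb1, Olfr800, Olfr1137, Parp11, Tnni1 and Klhl8 were 0.82, 0.68, 0.65, 0.56, 0.55, 0.53 and 0.43. With Cd3e alone the highest were Sit1 (0.92), Tas2r143 (0.86), Thy1 (0.86), Svs6 (0.86), Olfr792 (0.83), Tsga13 (0.81), Vmn1r17 (0.79), Bcl11b (0.79), Rad54l (0.78) and Mamstr (0.78). Sit1, a T cell signalling adaptor, Thy1, a surface protein of T cells, and Bcl11b, a factor of T lineage commitment, had 0.92, 0.88 and 0.77 without the PBS Control TSB arrays. The other genes of this list kept like values, with Svs6, Tas2r143, Olfr792, Mamstr, Vmn1r17, Tsga13 and Rad54l at 0.87, 0.85, 0.85, 0.85, 0.84, 0.82 and 0.76. Several of these genes had means near the dim end of the array, such as Svs6 at 5.85 and Olfr792 at 5.93.

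Other genes of the T cell programme moved in both directions with bleomycin; over both blockers 4.25% of all genes were called higher and 1.68% lower. T cell receptor chain genes had no annotated spot among the 17 listed and were not analysed here. Among 27 tested genes of receptor signalling, 2 were called higher over both blockers and none lower (median change -0.09, against 0.01 over all genes). Their changes ran from -0.63 to 0.59, with 18 of 27 below 0. At an unadjusted p under 0.05 (limma), 4 were higher and 4 lower. Nfatc2, a calcium-driven factor, rose by 0.36 (adjusted p = 0.0306) and by 0.55 under Control TSB (adjusted p = 0.0409), and Malt1, a protease of the antigen receptor pathway, rose by 0.59 (adjusted p = 0.0373). Malt1 had 9.65 to 10.44 with CAV1 TSB and 10.03 to 10.70 with Control TSB after bleomycin, against 9.75 and 9.64 with CAV1 TSB and 9.91 and 9.16 with Control TSB after PBS. The call over both blockers ended in 4 of 16 fits without 1 array for Nfatc2 and in 11 of 16 for Malt1, and the call of Nfatc2 under Control TSB in 13 of 16. Under Control TSB the Nfatc2 change was 0.88 without PBS Control TSB array 1 and 0.23 without array 2, and over both blockers it was 0.20 without array 2.

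Of 23 surface and costimulatory genes, 3 were called higher over both blockers and none lower (median change -0.03, with 12 of 23 below 0). At an unadjusted p under 0.05 (limma), 5 were higher and 4 lower. Pdcd1, which encodes the inhibitory receptor PD-1, had 6.49 to 7.37 in bleomycin CAV1 TSB arrays and 7.21 to 7.75 in bleomycin Control TSB arrays, against 6.37 and 6.39 in PBS CAV1 TSB arrays and 6.60 and 6.61 in PBS Control TSB arrays. Only bleomycin CAV1 TSB array 1, at 6.49, fell among the PBS values. Pdcd1 rose by 0.80 (SE 0.127, adjusted p = 0.00262), and the call held without each of the 16 arrays (0.77 to 0.86). Under Control TSB it rose by 0.91 (adjusted p = 0.0220), a call that ended without PBS Control TSB array 2 (0.92, adjusted p = 0.148). Havcr2, another inhibitory receptor, which macrophages and dendritic cells also express, rose by 0.48 (adjusted p = 0.0229), and Itgae, the integrin of tissue-resident T cells and some dendritic cells, by 0.40 (adjusted p = 0.0362). The Havcr2 call ended without either PBS CAV1 TSB array or PBS Control TSB array 2 (0.46, 0.49 and 0.39, with adjusted p = 0.124, 0.0756 and 0.0975), and that of Itgae in 9 of 16 such fits. In the same comparison 6 of 12 macrophage markers and 3 of 11 dendritic cell markers were higher and 1 of each was lower; their part in these rises was not tested.

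T cell transcription factors fell where they were called. Over both blockers 4 of 17 were lower and none higher (median change -0.22). Satb1, a chromatin organiser of thymocytes and naive T cells, had 9.15 to 9.82 with CAV1 TSB and 9.31 to 9.66 with Control TSB after bleomycin, against 9.76 and 9.74 with CAV1 TSB and 10.93 and 10.04 with Control TSB after PBS. It fell by 0.62 (adjusted p = 0.0136) and, under Control TSB, by 1.00 (adjusted p = 0.0201), of which -0.55 (adjusted p = 0.0542) was left without PBS Control TSB array 1, its highest array. Over both blockers the Satb1 call ended without PBS CAV1 TSB array 1 or 2 (-0.62 and -0.63, adjusted p = 0.0779 and 0.0579), and without PBS Control TSB array 1 the change was -0.40 (adjusted p = 0.0488). Lef1, a factor of naive and developing T cells, had 9.53 to 9.85 with CAV1 TSB and 9.58 to 9.94 with Control TSB after bleomycin. After PBS it had 10.40 and 10.18 with CAV1 TSB and 10.50 and 9.86 with Control TSB. Lef1 fell by 0.53 over both blockers (limma, adjusted p = 0.00756), a call that ended without PBS CAV1 TSB array 1 (-0.47). Over the 16 fits without 1 array its change ran from -0.69 to -0.37. Eomes, a factor of cytotoxic lymphocytes, fell by 0.33 (adjusted p = 0.0191) and by 0.63 under CAV1 TSB (adjusted p = 0.0277; 0.172% of genes were lower and 0.345% higher there), and Tbx21, which drives the type 1 programme in T and NK cells, by 0.33 (adjusted p = 0.0311); leaving out 1 array ended these 3 calls in 3, 6 and 6 of 16 fits. NK cell markers, which share Eomes and Tbx21, were lower for 8 of 15 genes in that comparison and higher for none, and the part of NK cells in these falls was not tested. Of 9 genes of naive and recirculating T cells, Satb1 and Lef1, which both lists hold, were the 2 that were called.

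Among 13 tested regulatory T cell genes other than Foxp3, 2 were called higher over both blockers and none lower (median change 0.07, with 6 of 13 below 0). At an unadjusted p under 0.05 (limma), which 17.4% of all genes reached, 4 were higher and 2 lower. The 2 lower genes were Il2rb (-0.23) and Ikzf4 (-0.22). Tnfrsf4, the OX40 receptor, had 9.34 to 9.95 with CAV1 TSB and 9.78 to 10.06 with Control TSB after bleomycin, against 9.38 and 9.04 with CAV1 TSB and 9.32 and 9.11 with Control TSB after PBS. Only bleomycin CAV1 TSB array 1, at 9.34, lay within the PBS range. Tnfrsf4 rose by 0.57 (adjusted p = 0.00345), a call that held without each of the 16 arrays (0.49 to 0.66), and by 0.68 under Control TSB (adjusted p = 0.0225; without PBS Control TSB array 2 0.57, adjusted p = 0.224). Tnfrsf18, the GITR receptor, rose by 0.36 (adjusted p = 0.0134; without PBS CAV1 TSB array 2 0.33, adjusted p = 0.0821) and by 0.48 under Control TSB (adjusted p = 0.0387), a call that ended in 11 of 16 such fits. Tnfrsf9, the 4-1BB receptor, had 10.52 to 11.23 with CAV1 TSB against 9.90 to 10.13 with Control TSB after bleomycin and was higher by 0.79 (limma, adjusted p = 0.0228). It was the 1 gene of the T cell pathway lists called between the blockers after bleomycin, where 1.2% of all genes were higher and 0.414% lower. This call ended in 5 of 16 such fits. After PBS Tnfrsf9 averaged 10.56 ± 0.66 with CAV1 TSB and 10.16 ± 0.68 with Control TSB (SD, n = 2 each). Between the blockers after bleomycin, Tnfrsf18 (-0.22), Tnfrsf4 (-0.23) and Ikzf4 (-0.22) of the same list were lower at an unadjusted p under 0.05. None of these was called, and 9.08% of all genes reached that p. Of the T helper cytokines none of 13 tested was called in any comparison; over both blockers 3 had an unadjusted p below 0.05 (limma), 1 with a positive and 2 with a negative change, namely Tnf (0.31, adjusted p = 0.155), Il4 (-0.25, adjusted p = 0.122) and Ltb (-0.22, adjusted p = 0.241).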

How the data were processed

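The deposited values are log2 intensities that the authors had normalized, with limma per the submitters' processing notes, its version not given in the sources used here; the background correction and the scanner were likewise not given. Array distributions were nearly the same (medians 6.51 to 6.52). No detection or saturation marks were used, and the number of arrays limits the precision. The values were used as deposited.

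Of 62976 spots, 31465 carried 1 gene symbol, none carried several, and 31511 were unnamed here. RefSeq accessions (GRCm38.p6, for names) matched 29036 of them and updated 2933 symbols. Each of 20863 genes took its brightest spot, and a gene was tested if 2 or more arrays had it over their own 25th percentile, which left 20304, all 8 measured members among them. With limma 3.58.1 (R 4.3.3), group means were estimated from the 16 arrays together, leaving 12 residual degrees of freedom. Tests were two-sided, p-values were adjusted by Benjamini-Hochberg across the tested genes, and 0.05 was the threshold of a call. Within-array differences were tested with exact permutation tests over arrays (scipy 1.17.1). The fit was tested on simulated data.

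The members and gene lists were chosen with earlier results of these data known. The genes named are every member, every called gene of the T cell pathway lists or, where a list had none, its 3 with the smallest p over both blockers, and the 10 genes most correlated with the members' mean and with Cd3e. Alternatives covered the dim filter, the choice of spot, normalization, moderation, array weights, the arrays fitted, a replicate block, covariates, a log2 change of at least 1 and leaving out each array. Same-numbered arrays did not deviate together, so the replicate numbers were not taken to pair samples. Lck and the T cell receptor chain genes had no annotated spot and were not analysed here.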

Additional observations from a re-analysis of the deposited data

Results flagged for a closer look

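Across the bleomycin groups of 6 arrays, 34 sets of 6 values were examined for an array far from the rest, and 5 had one. Chance gives about 1 in 20 for independent sets. These sets share arrays and genes, so no comparison with chance is drawn. Bleomycin CAV1 TSB array 5 was lowest of its group for Cd3d, at 9.81 with the next at 10.10, and for Cd8a, at 6.86 with the next at 7.13. The same array was highest of its group for the mean of the 23 surface and costimulatory genes, at 8.47 with the next at 8.21. Without Icos, a choice made after its values were seen, the mean of the other 22 genes was 8.07 in that array, the lowest of its group, against 8.13 to 8.21 in the other 5 arrays. Bleomycin Control TSB array 5 was highest of its group for Cd247, at 7.43 with the next at 7.06. Bleomycin Control TSB array 6 was highest of its group for Cd8a, at 7.44 with the next at 7.20.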

How the results depend on the processing

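The number of called members under Control TSB (1, Cd3e) became 0 with array weights, with only the arrays compared, with a replicate block, with the skeletal muscle covariate, with the B cell covariate and with a log2 change of at least 1, and ranged from 0 to 3 without 1 array; it was 1 under the other filters, spot rules, normalizations and moderation. Same-numbered arrays correlated between -0.69 and 0.44, and bleomycin Control TSB array 2 correlated best with bleomycin CAV1 TSB array 3 (0.67); the replicate block gave Cd3e -0.72 (adjusted p = 0.257). Without 1 array the counts ranged from 0 to 3 for CAV1 TSB against Control TSB after PBS, from 0 to 4 for bleomycin over both blockers and from 0 to 2 for the interaction, the highest in each without PBS Control TSB array 2. For bleomycin over both blockers the 1 called member was Cd3e without bleomycin CAV1 TSB array 6 (-0.36, adjusted p = 0.0172) or bleomycin Control TSB array 4 (-0.35, 0.0473), and Foxp3 without bleomycin Control TSB array 5. Over all genes, the 489 called under Control TSB became 0, 215, 1, 251, 14 and 115 in the 6 settings above and 91 to 4075 without 1 array. The cause was not tested. The 2 counts not named here were 0 in every setting.

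Directions turned in 5 member changes with the whole set of arrays, none of them called: with the B cell covariate Cd247 under CAV1 TSB (0.0017) and Cd4 over both blockers (0.13), with the skeletal muscle covariate Cd3d in the interaction (-0.0102), and with array weights Cd3g (0.0842) and Foxp3 (-0.0179) in the interaction. Leaving out 1 array turned these, by range. With bleomycin under CAV1 TSB, Cd247 ran from -0.0842 to 0.0739, Cd3d from -0.22 to 0.0672 and Cd3e from -0.11 to 0.0696. Under Control TSB, Cd3d ran from -0.73 to 0.22, Cd3g from -0.86 to 0.47 and Cd4 from -1.21 to 0.0545. Over both blockers, Cd3d ran from -0.41 to 0.0723, Cd3g from -0.54 to 0.13 and Cd4 from -0.43 to 0.21. Between blockers after PBS, Cd3d ran from -0.95 to 0.0122, Cd3g from -0.75 to 0.58, Cd8a from -1.42 to 0.31 and Cd8b1 from -1.35 to 0.44. Between blockers after bleomycin, Cd4 ran from -0.16 to 0.0698 and Foxp3 from -0.14 to 0.0040. In the interaction, Cd247 ran from -0.0011 to 0.23, Cd3d from -0.30 to 0.66, Cd3g from -0.69 to 0.64, Cd8a from -0.37 to 1.36, Cd8b1 from -0.27 to 1.52 and Foxp3 from -0.0269 to 0.12. Between blockers after bleomycin Cd4 minus Cd8a was -0.0369 with the mean of a gene's spots and ran from -0.11 to 0.15 without 1 array, and over bleomycin and PBS it ran from 0.0901 to 1.09. Foxp3 minus Cd3e between the blockers was 0.24 with Cd3d and 0.0575 with Cd3g in its place, and between bleomycin and PBS 0.46 and 0.51. The PBS groups have 2 arrays each, and some spots lay near the dim end, Foxp3 and the 10 other Cd4 spots among them.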

Other observations

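Icos, an inducible costimulatory receptor of T cells, had 17.22 in bleomycin CAV1 TSB array 5 and 7.55 to 8.76 in the other 15 arrays; it was singled out after its values were seen. Rag1 was 7.06 in bleomycin CAV1 TSB array 1, against 5.82 to 6.20 in the other arrays apart from PBS Control TSB array 1. Tbata, of the thymus list, was highest in PBS Control TSB array 2, at 8.58, and fell by 0.79 with bleomycin under Control TSB (limma, adjusted p = 0.0413), a call that ended in 9 of 16 fits without 1 array. Cd28 was 8.94 in PBS Control TSB array 1 and 7.98 to 8.27 in the other 15 arrays. NK cell genes called lower over both blockers were Gzma (-0.84), Klra8 (-0.57), Klra9 (-0.51), Klra7 (-0.49), Prf1 (-0.48), Gzmb (-0.48), Klrb1c (-0.41) and Klri2 (-0.34). Of the 16 fits without 1 array, 11 ended the call of Klra7, 3 each those of Prf1, Klrb1c and Klri2, 2 each those of Klra8 and Gzmb, 1 that of Gzma and none that of Klra9. Over these fits the change ran from -1.05 to -0.63 for Gzma and from -0.71 to -0.43 for Klra8. Without PBS Control TSB array 1 the changes of Klrb1c and Klri2 were -0.24 (adjusted p = 0.0671) and -0.22 (adjusted p = 0.109). Under CAV1 TSB the changes called were Klra8 (-0.92), Klra7 (-0.91) and Klra9 (-0.74), and these calls ended in 9, 13 and 6 of 16 such fits.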
